A study of Mus musculus with 12 samples.

Results

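These 1168 gene areas of the mouse genome carried more 5-hydroxymethylcytosine (5hmC) in naive T cells than in any of 4 differentiated helper T cell types. A gene area is the stretch that the deposited table gives for 1 gene, and its value is the sequencing signal over that stretch. Members were chosen from the values themselves: an area at least 3000 bp long, a naive 5hmC signal of at least 20 that was at least 2 times the signal of each of the other 4 5hmC libraries, and a control IgG signal below 5. Of 37752 gene areas in the table, 22956 were at least 3000 bp long and 1168 of these, 5.09%, met every limit. The members held 1165 distinct gene symbols, and 200 of the areas had predicted or clone names.

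The study set 5-methylcytosine (5mC) and 5hmC side by side in naive T cells and in cells of the Th1, Th2, iTreg (induced regulatory) and Th17 types. Sonicated, denatured genomic DNA was precipitated with an antibody and sequenced. Each of the 5 cell types gave 1 library with a 5mC antibody and 1 with a 5hmC antibody, and Th17 cells also gave 1 library with control IgG and 1 of input DNA without antibody. The series names CD2(Cre)Tet2(f/f) mice, in which Cre driven by CD2 deletes floxed Tet2 in lymphoid cells, and their wild-type littermates on a mixed background, but the labels give neither the genotype nor the age, sex or number of the mice behind any library. The sources used here give neither culture conditions nor sorting, and no RNA was measured, so the cell type labels could not be checked against expressed markers. With 1 library per cell type and antibody, no difference between them has a replicate check and no test was made. The material was bulk DNA, in which less 5hmC in every cell and a loss in part of the cells cannot be told apart.

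Tet enzymes oxidise 5mC to 5hmC, which can remain as a mark of its own, be oxidised further, or be diluted when DNA is copied, since maintenance methylation does not restore it well. In lymphocytes 5hmC is found mainly over the bodies and enhancers of active genes. Naive T cells are quiescent, recirculate between blood and lymph nodes, and keep the T cell receptor machinery ready. When activated they divide many times and take on effector fates.

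The starts of 4 member genes are shown first, because CpG sites are where these marks are mostly placed in T cells, and the letters show how many there are. Lef1 encodes a DNA-binding partner of beta-catenin found in naive T cells and thymocytes, Satb1 a chromatin organiser of thymocytes, Lat the scaffold on which T cell receptor signals assemble, and Cd3e a signalling chain of the receptor. Each line gives the 250 bases before the transcription start, on the gene's own strand from 5′ to 3′, from RefSeq with build GRCm38.p6, with every CG in capitals. Where the table listed several starts (4 for Lef1 and 5 for Satb1) the most upstream was taken. The windows are chr3:131110047-131110296 (plus strand), chr17:51833291-51833540 (minus strand), chr7:126369569-126369818 (minus strand) and chr9:45009612-45009861 (minus strand).
Lef1: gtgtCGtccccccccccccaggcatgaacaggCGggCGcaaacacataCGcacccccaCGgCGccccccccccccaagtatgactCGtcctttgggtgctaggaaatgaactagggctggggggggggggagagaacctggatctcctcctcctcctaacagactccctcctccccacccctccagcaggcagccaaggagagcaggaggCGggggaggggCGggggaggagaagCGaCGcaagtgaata
Satb1: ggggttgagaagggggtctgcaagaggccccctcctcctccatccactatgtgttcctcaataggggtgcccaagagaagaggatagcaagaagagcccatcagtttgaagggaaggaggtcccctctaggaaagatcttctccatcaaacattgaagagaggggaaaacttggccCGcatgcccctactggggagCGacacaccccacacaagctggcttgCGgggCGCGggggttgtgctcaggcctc
Lat: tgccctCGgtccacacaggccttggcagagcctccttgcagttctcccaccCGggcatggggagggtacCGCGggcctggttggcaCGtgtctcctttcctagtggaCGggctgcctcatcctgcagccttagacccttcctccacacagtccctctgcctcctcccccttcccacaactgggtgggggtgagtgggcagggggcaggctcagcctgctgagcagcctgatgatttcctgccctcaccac
Cd3e: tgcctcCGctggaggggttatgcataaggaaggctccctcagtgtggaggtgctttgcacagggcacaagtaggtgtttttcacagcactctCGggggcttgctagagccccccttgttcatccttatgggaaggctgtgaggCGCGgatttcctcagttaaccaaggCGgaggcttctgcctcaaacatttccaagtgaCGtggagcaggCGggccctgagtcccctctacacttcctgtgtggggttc
Lef1 had 11 CG in this window, Cd3e 7, Lat 6 and Satb1 5. Over 27025 promoters of the same length the median was 6 CG (quartiles 2 and 16), and 91.7% held at least 1, so these 4 starts lie within the ordinary range. The signal values of the study cover whole gene areas and do not resolve these windows. RefSeq promoters were matched by gene identifier for 872 of the 1168 members (74.7%), under the 80% needed, so a comparison of promoter CG content over the members is void.

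The members' naive 5hmC signal had a median of 56.25 and ran from 20 to 312.6. Their medians in the other 5hmC libraries were 20.5 in Th1, 21.1 in Th2, 22.2 in the library labelled iTreg and 15.9 in the one labelled Th17. These 4 medians were close to those of the 7902 areas that met the length, naive signal and IgG limits but stayed under 2-fold, which were 21.5, 22.7, 22.0 and 18.7, while the naive median of those areas was 30.0. The members therefore stood out by their level in naive cells rather than by a low level elsewhere, a pattern that the rule itself favours. Over all areas of at least 3000 bp the medians were 16.2 in naive and 13.5, 13.9, 13.7 and 12.2 in the others.

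**Figure D1:**
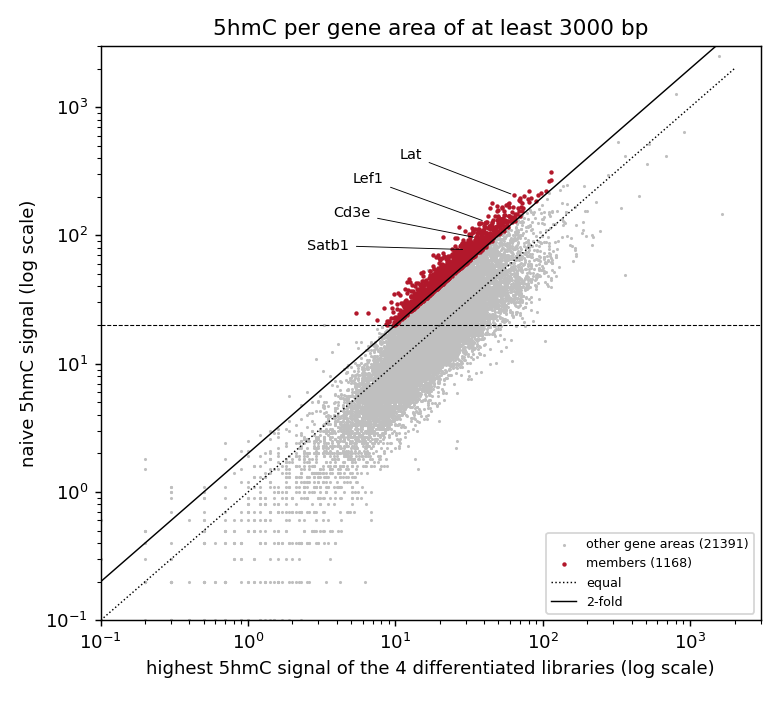
Each point is 1 gene area of at least 3000 bp, with the highest 5hmC signal of the 4 differentiated libraries on the horizontal axis and the naive 5hmC signal on the vertical axis, both on log scales. The 1168 members (red) lie above the 2-fold line and the naive limit of 20 by the rule that chose them, 21391 other areas are grey, and 397 areas with a value of 0 are left out.

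The ratio of naive to the highest of the other 4 had a median of 2.30 among the members (quartiles 2.12 and 2.54, highest 4.65), against 0.95 over all areas of that length. It was at least 3 in 75 members and at least 4 in 3, while 440 members lay under 2.2, close to the limit. Acad10 (32.8 in naive, 16.4 in the next library) and Ccdc12 (35.6 and 17.8) were just inside at 2.00. Tnfrsf25 (138.1 and 69.1) and Tsc22d4 (145.3 and 72.7) were just outside, each at 2.00 after rounding. The share of areas that were members went up with the naive signal, as the rule favours. It was 288 of 6112 areas (4.71%) with a naive signal of 20 to 40 and 598 of 2446 (24.4%) at 40 to 80. It was 252 of 470 (53.6%) at 80 to 160 and 30 of 42 (71.4%) at 160 or more. The ratio and the naive signal both enter the rule, so these values describe the rule and are not a test.

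As deposited, no other cell type had a set of this size under the same limits. The same limits applied to each other 5hmC library in turn, with that library at least 2 times all the rest, found 0 areas for Th1, 20 for Th2, 4 for the library labelled iTreg and 5 for the one labelled Th17. In 14 areas naive was the lowest, with each of the other 4 at 20 or more and at least 2 times naive. These counts come from the values that the rule used and are not like for like. A differentiated library had to exceed its fellow differentiated libraries as well as naive. The counts for the other libraries were not repeated after scaling. The size of the naive set moved with the scale of the libraries. Scaling each 5hmC library by its median ratio shifts the 4 differentiated libraries against naive by 0.15 to 0.30 on the log2 scale. After it 647 areas (2.82% of those of at least 3000 bp) met the rule. All 647 were among the 1168, which is fixed in advance, because this scaling lowers the naive signal, also against every other library.

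The control libraries give the level without enrichment by an antibody against a modified base. The members' IgG signal had a median of 1.2 and a highest value of 4.9, which the rule caps, and their input signal a median of 2.1 (0.2 to 5.9), both the same as in the areas under 2-fold. In all 5 5hmC libraries all 1168 members lay above IgG and above input, which for naive against IgG is fixed by the rule. Over all areas of at least 3000 bp the 5hmC medians, 12.2 to 16.2, also lay above those of IgG (1.0) and input (1.8). The share of all areas above both controls was not counted, so this is not read as particular to the members. IgG was below 1 in 476 members and at least 4 in 37.

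**Figure D2:**
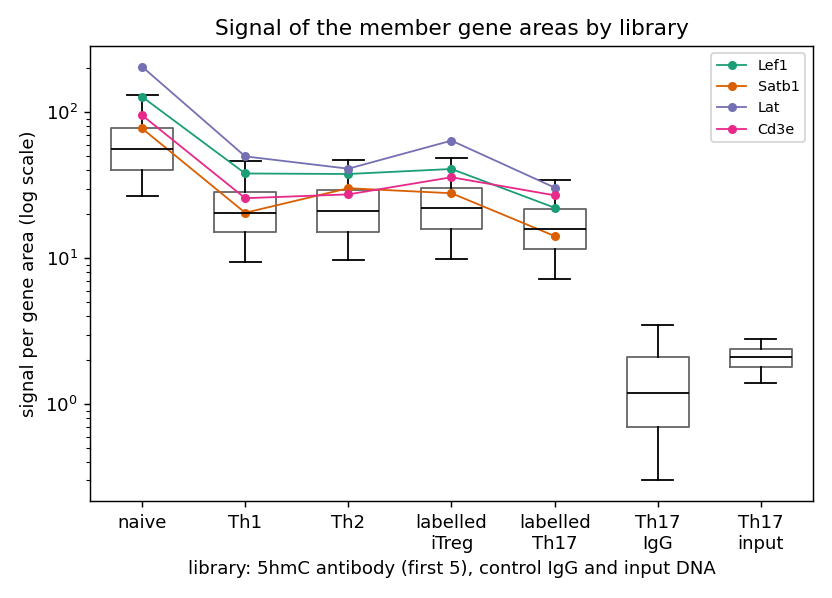
Boxes show the signal of the 1168 members in the 5 5hmC libraries, the IgG library and the input library on a log scale, with the median, the quartiles and whiskers to the 5th and 95th percentiles, and 73 IgG values of 0 are left out. Lines follow Lef1, Satb1, Lat and Cd3e across the 5 5hmC libraries, where all 4 have their highest value in naive cells.

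The shares in this paragraph come from the 5hmC values that the rule used, and are descriptions only. Among the 4 differentiated libraries, the one labelled Th17 was alone the lowest in 862 members (73.8%). The same held for 40.5% of all areas of at least 3000 bp and 52.2% of the areas under 2-fold. After median-ratio scaling these shares were 61.3%, 30.3% and 39.1%. The library labelled iTreg was alone the highest of the 4 in 497 members (42.6%, 27.6% over all areas), and the one labelled Th17 in 57 (4.88%, 17.2% over all areas). These 2 labels were in doubt: Il17a and Il17f, the cytokine genes of Th17 cells, had 5hmC signals of 31.3 and 32.8 in the library labelled iTreg and of 8.8 and 5.3 in the one labelled Th17. The rule treats the 4 libraries alike, so membership does not depend on which is which. For the 5mC, input and IgG libraries no such check was made.

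The 4 genes shown above illustrate the pattern. From here on, values of differentiated cells are in the order Th1, Th2, labelled iTreg, labelled Th17. Lef1 (chromosome 3, 130813388 to 130926251, mm9 as all gene areas here) had 5hmC signals of 38.1, 37.8, 40.9 and 22.2 in these, with naive at 127.9, a ratio of 3.13 to the highest. Satb1 (chromosome 17, 51875511 to 51972614) had 20.5, 30.2, 27.9 and 14.2, with naive at 77.6 and a ratio of 2.57. Lat (chromosome 7, 133507340 to 133513047) had 49.9, 41.1, 64.0 and 30.5, with naive at 205.7 and a ratio of 3.21. Cd3e (chromosome 9, 44806825 to 44817672) had 25.8, 27.4, 35.9 and 27.0, with naive at 95.6 and a ratio of 2.66. In 3 of the 4 the lowest was the library labelled Th17, and in Cd3e it was Th1. The IgG signal of Lat was 4.5, near the limit of 5, and that of Cd3e 0.1. After scaling of the 5hmC libraries the ratios were 2.81, 2.31, 2.89 and 2.39.

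By function, 91 members stood on at least 1 of 21 gene lists, and the shares are read against the 5.09% of all areas of at least 3000 bp. A list's share also follows its naive signal, since the share of members is higher in the classes of higher naive signal above. Lymphocyte regulators of small GTPases and actin had the highest share, 15 of 29 areas (51.7%), followed by genes of naive T cell identity, homing and quiescence with 11 of 24 (45.8%). Proximal T cell receptor signalling had 10 of 27 (37.0%), brakes on that signalling 8 of 24 (33.3%) and the receptor complex with its coreceptors 4 of 14 (28.6%). After scaling of the 5hmC libraries these 5 lists had 10, 10, 6, 6 and 3 members. The order of the first 2 then turns, with 10 of 29 against 10 of 24. It also turns among areas within the length, naive signal and IgG limits, of which 51.7% and 52.4% were members. Over all 9070 areas within those limits, 1168 were members.

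**Figure D3:**
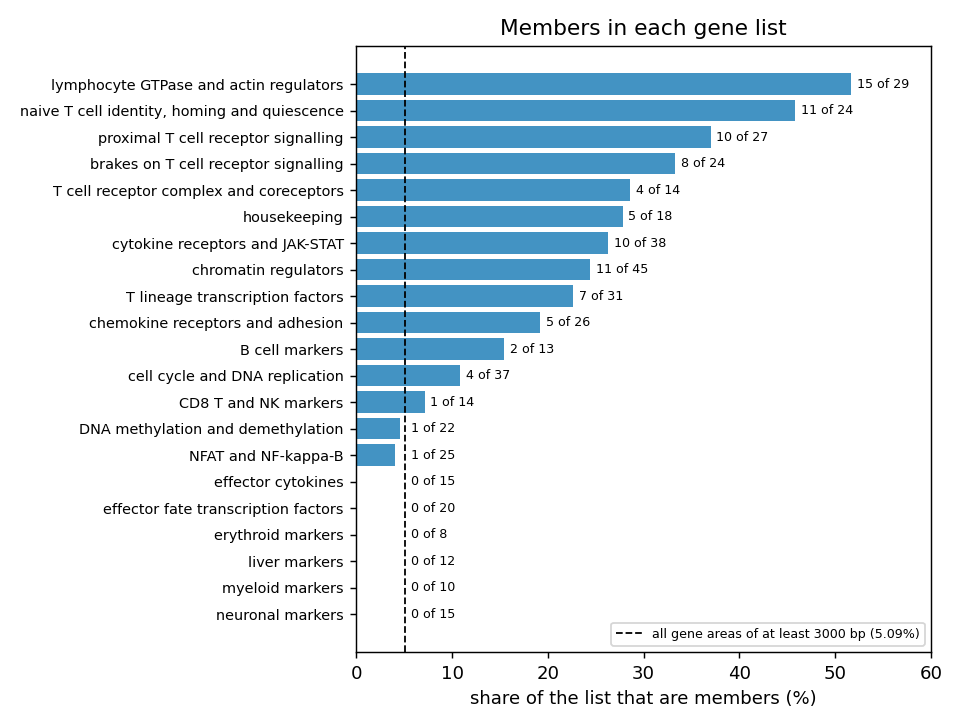
Bars give the share of each list's gene areas of at least 3000 bp that are members, in percent, with the counts beside them, and the dashed line is the 5.09% of all such areas. Lymphocyte GTPase and actin regulators (15 of 29) and naive identity genes (11 of 24) are at the top as deposited, in an order that turns after scaling, and 6 lists, among them effector cytokines, hold 0 members.

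In the T cell receptor complex the members were Cd4, Cd3e, Cd8a and Cd3g. Cd4, the coreceptor of helper T cells (chromosome 6, 124814710 to 124838226), had a naive 5hmC signal of 126.2 and 50.9, 46.3, 57.3 and 36.9 in the others. Cd8a, the coreceptor of cytotoxic T cells (chromosome 6, 71323420 to 71329164), had 78.0 in naive and 26.3, 18.3, 26.3 and 23.3. Both coreceptor genes were thus highest in naive cells although helper T cells use only CD4. Naive was above all 4 others in 13 of the 14 areas of this list, against 45.0% of all areas of at least 3000 bp. Surface receptors that missed the limit include Cd6, with 244.9 in naive and a highest other value of 136.4 (ratio 1.80), and Cd5 (152.9 and 116.2, ratio 1.32), both named after their values were seen.

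Kinases and adaptors next to the receptor followed. Lck, the kinase that phosphorylates the receptor's chains first (chromosome 4, 129225587 to 129250884), had a 5hmC signal of 223.1 in naive and 68.0, 76.0, 81.2 and 50.0 in the others. Grap2, an adaptor that binds Lat (chromosome 15, 80453912 to 80480727), had 143.5 in naive and 48.2, 54.1, 55.8 and 30.1. The other members of the list, apart from Lat, were Skap1, Itpkb, Orai1, Txk, Rasgrp1, Fyn and Sh2d1a. Zap70, the kinase that acts after Lck, stayed under the limit at 108.2 and a highest other value of 77.4 (ratio 1.4), and is named here after its values were seen.

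Part of the brakes on this signalling, 8 of 24 areas, carried the same pattern. Naive was above all 4 others in 20 of the 24 (45.0% over all areas of at least 3000 bp). It was below the highest other library in 4 (53.1% over all areas). Among these 4 were Ctla4 (26.3 in naive against at most 41) and Pdcd1 (46.3 against at most 50.4), named after their values were seen. Csk, the kinase that holds Lck inactive (chromosome 9, 57474452 to 57492986), had 132.5 in naive and 41.3, 46.0, 43.8 and 20.5. Rasal3, which switches Ras off (chromosome 17, 32527605 to 32540525), had 128.5 in naive and 48.6, 53.9, 58.0 and 34.2. Ptpn6, the phosphatase SHP-1 (chromosome 6, 124670735 to 124688726), had 120.3 in naive and 42.6, 52.5, 48.2 and 30.6. Dgka, Dgkz, Ubash3a, Cbl and Pag1 completed the 8, so genes that start the signal and genes that limit it were both among the members.

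All 24 areas of at least 3000 bp on the naive T cell identity, homing and quiescence list had their highest 5hmC in naive cells. Over all areas of that length this held for 45.0%. The list's median ratio to the highest other library was 1.94. Ccr7, the receptor that guides naive cells into lymph nodes (chromosome 11, 99005512 to 99016390), had 147.1 in naive and 65.1, 66.9, 45.7 and 28.4. Foxo1, a transcription factor that maintains quiescence and homing receptors (chromosome 3, 52072258 to 52154030), had 111.4 in naive and 43.6, 39.9, 43.2 and 26.7. The remaining members, besides Lef1 and Satb1, were Tcf7, Il6ra, S1pr1, Pik3ip1, Klf3, Actn1 and Btg1. Other well-known naive genes missed the limits, and those given here are named after their values were seen. Il7r, the survival cytokine receptor, had 53.8 against at most 29.6 (ratio 1.82). Klf2, a quiescence factor, had 67.3 against at most 46.5, under 2-fold, and its area of 2592 bp was also too short for the rule.

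Small GTPase and actin regulators drive T cell migration and the contact with antigen-presenting cells. Naive 5hmC was above all 4 others in 29 of 29 areas of this list, against 45.0% of all areas of at least 3000 bp. The median ratio was 2.02, the highest of the 21 lists. Rac2, a GTPase of blood cells (chromosome 15, 78389598 to 78403212), had 222.0 in naive and 89.4, 105.4, 95.3 and 82.6. Hmha1, a minor histocompatibility antigen of blood cells (chromosome 10, 79479416 to 79494215), had 184.4 in naive and 55.2, 50.6, 70.3 and 31.7. Arhgef1, which switches RhoA on (chromosome 7, 25688004 to 25711610), had 140.6 in naive and 32.3, 34.7, 47.2 and 24.6. Rhoh, Coro1a, Rac1, Stk4, Stk10, Evl, Gimap1, Rhoa, Gimap3, Rassf5, Gimap5 and Rapgef6 were members too. The list's members thus bring together GTPases, coronin, the kinases Stk4 and Stk10, and Gimap proteins of lymphocyte survival.

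Of 31 areas of T lineage transcription factors, 7 were members (22.6%). Egr1, an early factor of receptor signalling (chromosome 18, 35020860 to 35024609), had 185.6 in naive and 53.2, 89.2, 61.5 and 35.8, with an IgG signal of 4.4. Bcl11b, which commits progenitors to the T lineage (chromosome 12, 109148612 to 109241623), had 152.1 in naive and 54.9, 62.2, 59.4 and 41.9. Zbtb7b, the factor ThPOK of the CD4 lineage (chromosome 3, 89181567 to 89197124), had 90.2 in naive and 33.6, 35.9, 28.8 and 15.0. The other 4 were Mef2d, Elf1, Ikzf1 and Tox, and the count was 4 after scaling. NFAT and NF-kappa-B genes had 1 member of 25 (4.00%), Nfatc3, at 75 in naive, so this group lay near the share of all areas.

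Receptors for cytokines and their JAK and STAT partners had 10 members of 38 (26.3%). The list was split. Naive was above all 4 others in 27 areas (45.0% over all areas of at least 3000 bp). It was below the highest other library in 11 (53.1% over all areas). Among the 11 were Jak2 (31.7 in naive against at most 94.8) and Il2ra (39.2 against at most 70.5), named after their values were seen. Tgfbr2, a receptor of TGF-beta (chromosome 9, 115996812 to 116084480), had 163.9 in naive and 73.2, 68.4, 73.5 and 44.8. Stat6, which carries the interleukin 4 signal (chromosome 10, 127080041 to 127098042), had 130.7 in naive and 65.0, 63.8, 54.6 and 32.6, a ratio of 2.01. Il6ra, which binds interleukin 6 (chromosome 3, 89673245 to 89717083), had 106.6 in naive and 39.0, 40.1, 37.1 and 29.7. The list kept 5 members after scaling of the 5hmC libraries. Chemokine receptors and adhesion molecules had 5 of 26 (19.2%): Ccr7, Itgb2, Itgb7, S1pr1 and Icam2, with 3 after scaling. Itgb2, the beta chain of the integrin LFA-1 (chromosome 10, 76993092 to 77028418), had 118.2 in naive and 37.7, 43.1, 43.3 and 32.2. Itgb7, a chain of gut-homing integrins (chromosome 15, 102046425 to 102062365), had 92.2 in naive and 31.7, 32.2, 34.9 and 23.2.

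For effector genes the level in naive cells was mostly not the highest. Of 15 areas of effector cytokines and 20 of effector fate transcription factors, 0 were members, which at 5.09% of all areas and with 7 and 11 areas within the other limits sets neither list apart. Naive lay below the highest other library in 13 and in 15 of them, against 53.1% of all areas of at least 3000 bp. The median ratio of naive to the highest other library was 0.41 for effector cytokines and 0.71 for the transcription factors. Ifng and Il4, named after their values were seen, had 10.0 and 26.2 in naive against highest values of 22.6 in Th1 and 82.6 in Th2.

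Chromatin regulators had 11 members of 45 (24.4%), while the DNA methylation and demethylation list had 1 of 22 (4.55%). After scaling of the 5hmC libraries these were 6 and 0. Hdac1, a histone deacetylase (chromosome 4, 129193347 to 129219889), had 109.0 in naive and 49.7, 44.4, 44.4 and 33.6. Arid1a, a subunit of the BAF remodelling complex (chromosome 4, 133234922 to 133309525), had 92.6 in naive and 23.6, 28.8, 26.7 and 19.4. Mll2, a histone H3K4 methyltransferase (chromosome 15, 98662099 to 98701613), had 88.5 in naive and 25.9, 29.4, 32.4 and 25.6. Idh2, whose normal product feeds Tet enzymes (chromosome 7, 87239731 to 87260235), had 67.3 in naive and 28.6, 23.0, 31.4 and 16.8. Tet3 missed the limit at 94.3 in naive against at most 48.0 (ratio 1.96), and Tet2 had 31.9 against at most 26.3 (ratio 1.21), both named after their values were seen.

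General cellular genes were also present. Cell cycle and replication genes had 4 members of 37 (10.8%) and 1 after scaling. Ccnd3, the D-type cyclin of lymphocytes (chromosome 17, 47641999 to 47736637), had 177.9 in naive and 53.6, 59.4, 58.2 and 44.1. E2f2, which restrains T cell proliferation (chromosome 4, 135728308 to 135751971), had 110.0 in naive and 39.2, 40.8, 52.8 and 36.6. Aurkb, a mitotic kinase (chromosome 11, 68859144 to 68865163), had 57.7 in naive and 28.8, 15.3, 23.1 and 12.9. Housekeeping genes had 5 of 18 (27.8%), a share close to that of the receptor complex. Of all 9070 areas within the length, naive signal and IgG limits, 1168 were members. Among housekeeping areas within these limits the share was 45.5%, above the 28.6% of the receptor complex and the 40% of proximal signalling. Membership was thus not limited to T cell genes. Among the housekeeping members, B2m, the light chain of MHC class I (chromosome 2, 121973422 to 121978817), had 88.4 in naive and 34.8, 27.7, 29.0 and 26.1. Actb (chromosome 5, 143664794 to 143668402) had 55.7 in naive and 23.0, 22.6, 15.5 and 17.6. Eef2, a translation factor (chromosome 10, 80639375 to 80645253), had 84.9 in naive.

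Markers of other cell types differed by list. Myeloid, erythroid, liver and neuronal lists had 0 members of 10, 8, 12 and 15 areas, counts too small to set apart from 5.09%, and their median ratios of naive to the highest other library lay between 0.77 and 1.04, against 0.95 over all areas. CD8 T and NK markers had 1 of 14 (7.14%), Cd8a. B cell markers had 2 of 13 (15.4%), Cd79a and Cd79b, the signalling chains of the B cell receptor. Naive was above all 4 others in 7 of the 13, against 45.0% of all areas of at least 3000 bp. Among areas within the length, naive signal and IgG limits, 2 of 7 B cell areas (28.6%) were members, the share of the T cell receptor complex. For CD8 T and NK markers it was 1 of 5 (20%), on counts this small. Of all 9070 areas within these limits, 1168 were members. Cd79a (chromosome 7, 25682529 to 25687215) had 159.2 in naive and 49.3, 42.5, 43.2 and 28.3, and its area ends just before that of Arhgef1. Cd79b (chromosome 11, 106172654 to 106175842) had 65.5 in naive and 29.9, 26.0, 26.4 and 21.1. The part of B cells or of neighbouring genes in these 2 values was not tested.

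The highest naive signals among members with established gene names included genes outside the T cell lists. Supt4h1, a subunit of a transcription elongation factor (chromosome 11, 87551066 to 87557118), had 268.3 in naive and 94.1, 113.5, 84.2 and 52.0. Cotl1, an actin-binding protein (chromosome 8, 122333113 to 122364478), had 266.1 in naive and 92.3, 109.9, 110.9 and 96.1. Tap1, the peptide transporter of MHC class I, had 203.8 in naive and 74.2, 59.6, 73.5 and 52.1. The interferon-induced Oas3 (215.0 in naive), the Egr corepressor Nab2 (206.8), Galnt6, an enzyme of O-glycosylation (196.4), and Tmc6 (192.9) completed the 10 highest with Lck, Rac2 and Lat. Their highest differentiated values lay between 64.0 and 113.5.

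The largest ratio belonged to Gli1, a transcription factor of Hedgehog signalling (chromosome 10, 126766937 to 126778634), with 97.7 in naive and 19.0, 20.1, 21 and 15.0 (4.65). Arhgap9, a GTPase regulator of blood cells in the area that adjoins Gli1 (126760782 to 126766998), had 117.0 in naive and 27.1, 22.4, 26.7 and 20.3 (4.32). Neighbouring areas share sequenced fragments, so these 2 are not independent. Trdv5, a variable segment of the T cell receptor delta locus, had 25 in naive and 4.9, 2.8, 5.4 and 1.8 (4.63). Its input signal was 0.2, the only member under 0.6, and the values are uncertain. Emg1 (3.99), H2-T10 (3.80), Gigyf1 (3.77), Paqr6 (3.74), Cnn2 (3.74), Vamp1 (3.66) and Mfsd10 (3.60) followed. H2-T10 belongs to a family of near-identical MHC genes, and how reads that match several copies were placed is not given in the sources used here, so that its 24.7 in naive and 6.3, 6.4, 6.5 and 2.7 are uncertain, as are the values of the other 4 H2 members of 27 H2 areas.

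Members lay in shorter and more crowded gene areas. Their median length was 12293.5 bp, against 18802 bp for areas under 2-fold and 18208 bp for all areas of at least 3000 bp, and a median of 5 other gene areas lay within 100 kb, against 4 and 3. A further member that did not overlap it lay within 10 kb of 414 members (35.4%), while 8.44% of the areas under 2-fold and 5.26% of all areas had a member that near. Members that overlap were joined into 1095 loci, and joining across gaps of up to 10 kb gave 869 clusters, of which 208 held more than 1 member and 507 members in all. Protein-coding genes made up 87.4% of members, 85.4% of areas under 2-fold and 76.6% of all areas. The longest member was the T cell receptor beta locus, Tcrb, with 667075 bp and 20 in naive against 9.4, 9.6, 7.8 and 6.3, followed by Scfd2 (326933 bp) and Tox (303337 bp).

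In the clusters with most members, every area of at least 3000 bp was a member. Clusters were joined from members across gaps of up to 10 kb and ranked by their number of members. Areas were counted only between the first and the last member, so full counts are favoured by construction. On chromosome 19, 7 of 7 areas between 4148662 and 4201602 (Coro1b, Rps6kb2, Carns1, Gm17552, Tbc1d10c, Ppp1ca and Rad9) had naive signals of 51.4 to 86.2 and ratios of 2.04 to 3.58. On chromosome 6, 6 of 6 between 124613121 and 124706504 (Lpcat3, Emg1, Phb2, Ptpn6, Rnu7 and Atn1) had 88.5 to 179.4 and ratios of 2.05 to 3.99, and Cd4 lies further along the same chromosome. On chromosome 10, 6 of 6 between 79433468 and 79502403 (Grin3b, ORF61, Cnn2, Abca7, Hmha1 and Polr2e) had 30.8 to 184.4. Another stretch, on chromosome 19 between 6334978 and 6415215, held Men1, Map4k2, Gm14966, Sf1, Pygm and Rasgrp2, 6 of 6, with 47.6 to 107.6. Between them, these clusters held lymphocyte genes such as Ptpn6, Hmha1 and Rasgrp2 and broadly used ones such as Ppp1ca, Phb2, Polr2e and Sf1.

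A cluster in the MHC region, chosen after its values were seen, joined 5 of 5 areas on chromosome 17 between 34319043 and 34353265: Psmb9, Tap1, Psmb8, LOC625805 and Tap2. Psmb8 and Psmb9 are subunits of the immunoproteasome, which cuts peptides for MHC class I, and Tap1 and Tap2 carry them into the endoplasmic reticulum. Psmb9 had 128.0 in naive and 45.2, 36.5, 37.2 and 30.0. Psmb8 had 144.7 in naive and 54.5, 54.1, 54.5 and 41.6. Tap2 had 136.7 in naive and 60.3, 60.7, 51.5 and 58.0, the flattest of these across differentiated cells. With B2m and Tap1, several steps of class I antigen presentation were thus represented.

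Chromosomes 11, 19, 17 and 10 held the highest shares of members among areas of at least 3000 bp, with 9.32%, 7.94%, 7.76% and 7.11%. Chromosome X had 7 of 1085 (0.645%) and Y 0 of 32. Of the X areas only 100 met the length, naive signal and IgG limits, and the 7 members were 7.00% of those. This was above the 6.03% of chromosome 18 and below the 8.94% of chromosome 13, while the other autosomes had 10.3% to 17.1%. Over all chromosomes 1168 of the 9070 areas within these limits were members. Few X areas met these limits, and among those that did the share of members was also low.

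**Figure D4:**
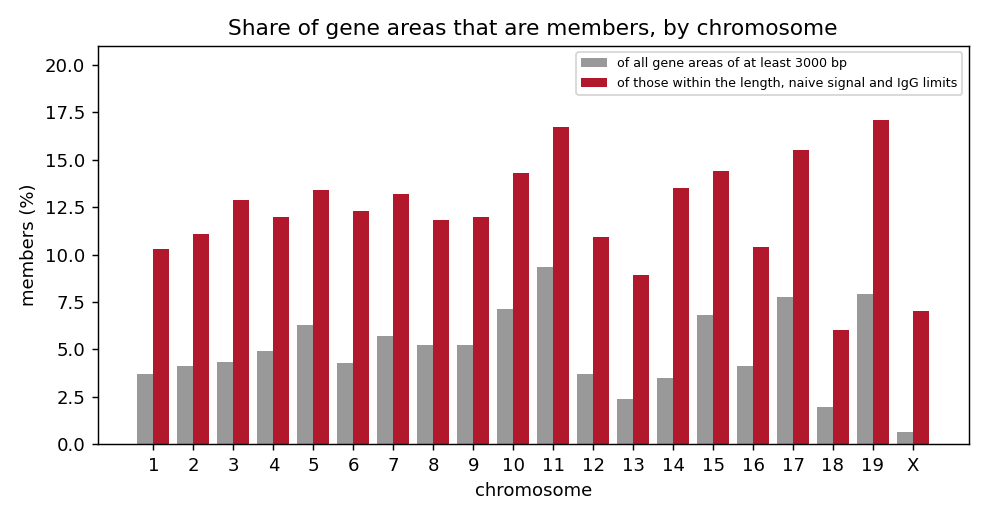
Bars give, for each chromosome, the percent of gene areas that are members, out of all areas of at least 3000 bp (grey) and out of those within the length, naive signal and IgG limits (red). Chromosome X has 0.645% by the first count and 7.00% by the second, and chromosome Y, with 0 of 32 areas, is not drawn.

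The 5mC libraries were not used to choose the members. The members' median 5mC signal was 1.0 in naive and 1.2, 1.1, 1.0 and 1.0 in the differentiated libraries, against 0.8 and 0.8, 0.7, 0.7 and 0.7 over all areas. Values are rounded to steps of 0.1, and in 1088 members the 5mC signal lay below input in all 5 libraries as deposited. Over all areas the median input, 1.8, was likewise above the 5mC medians, and the share of all areas below input was not counted. The 5mC difference is the mean over the 4 differentiated libraries minus naive on the log2(value + 0.2) scale, which understates the change of low areas. Its median was 0.02 in the members (quartiles -0.14 and 0.19), -0.07 in the areas under 2-fold and -0.11 in all areas. The members thus lay 0.13 above all areas, while their own median was close to 0. Median-ratio scaling of the 5mC libraries shifts the median of all areas by 0.109, and the members then lay 0.15 above it.

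Naive 5mC lay below each of the other 4 in 199 members (17.0%), against 5.75% of all areas and 7.74% of those under 2-fold. It lay above each of the other 4 in 134 members (11.5%), against 22.4% and 19.9%. The mean of the 4 was above naive in 619 members (53.0%, 30.4% over all areas). A 5mC signal at least 1.5-fold higher in the mean of the 4 was seen in 32 members (2.74%, 0.767% over all areas), and one at least 1.5-fold lower in 12 (1.03%, 3.48% over all areas). These counts depend on the processing. After median-ratio scaling 468 members (40.1%, 19.4% over all areas) had naive below each of the others and 104 (8.90%, 21.1%) above each, 73 (6.25%, 1.62%) were at least 1.5-fold higher and 4 (0.342%, 1.33%) at least 1.5-fold lower. With a pseudocount of 1 in place of 0.2, 1 member was 1.5-fold higher (0.0856%, 0.0131% over all areas) and 1 lower (0.0856%, 0.0871%). Naive lay below each of the others in 308 members without the Th17 library, where the share of all areas also went up, to 9.68%. It did so in 82 when a gap of at least 0.2 was asked for (1.78% of all areas). By library, the members' median difference from naive was 0.18 in Th1, 0.00 in Th2 and iTreg and -0.10 in Th17 as deposited, where all areas had 0.00, -0.10, -0.17 and -0.17. After median-ratio scaling all 4 were above 0, with 0.16, 0.12, 0.19 and 0.11, and the medians of all areas lay between -0.017 and 0.0066, so the direction in Th17 turns with the scale. Without the Th1 library the members' median was -0.016 and that of all areas -0.15, so its sign rests on that library.

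The 5mC difference went along with the 5hmC ratio across the 9070 areas within the length, naive signal and IgG limits. Areas whose naive 5hmC was below the mean of the other 4 (1257 areas) had a median 5mC difference of -0.14, those with a ratio of 1.5 to 2 (2653) had -0.05, those of 2.5 to 3 (683) had 0.02 and those of 3 or more (361) had 0.07. In the same classes the share of areas with naive 5mC below each of the other 4 was 4.53%, 8.90%, 15.1% and 24.9%. Median length was 18747 bp in the first class and 8252 bp in the last, and its part in the pattern was not tested beyond the members of at least 10000 bp, whose median 5mC difference was 0.04. Within areas of equal naive 5mC (0.8 to 1.2) the first and last class had -0.10 (520 areas) and 0.12 (137 areas). Across single areas the relation was weak, with Pearson's r 0.204 and Spearman's rho 0.202 over 9070 areas and 0.093 and 0.124 within the 1168 members. The areas share the same libraries and many adjoin, so these values are descriptions.

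**Figure D5:**
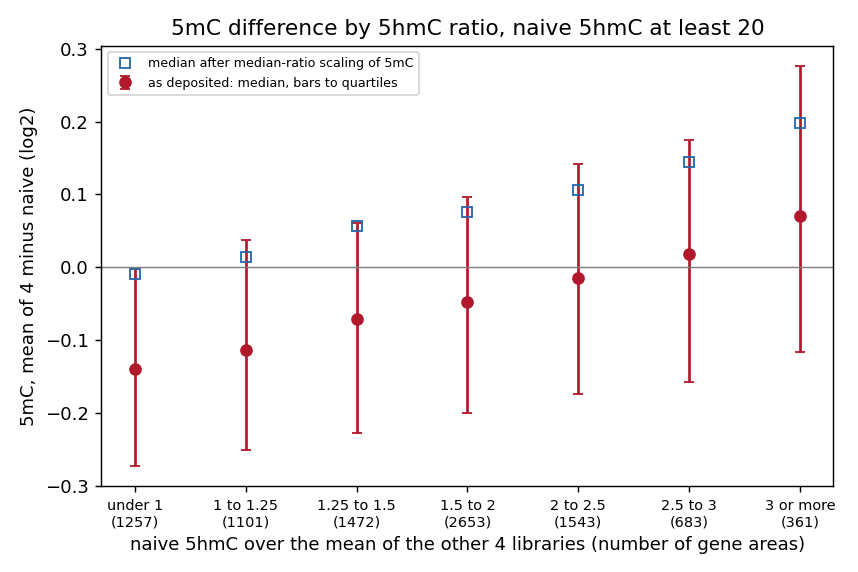
Points show the median 5mC difference (log2, mean of the 4 differentiated libraries minus naive) of areas within the length, naive signal and IgG limits, in classes of the ratio of naive 5hmC to the mean of the other 4, with bars to the quartiles. Medians as deposited run from -0.14 in the lowest class to 0.07 in the highest, squares show the medians after median-ratio scaling, and the quartiles of neighbouring classes overlap widely.

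Among gene groups, the naive identity list had the most even direction in 5mC: all 11 members were higher in the mean of the 4 differentiated libraries, with a median difference of 0.27. Lef1 had a 5mC signal of 0.5 in naive and 1.0, 0.8, 0.8 and 1.0 in the others. Satb1 had 0.2 in naive and 0.4, 0.4, 0.4 and 0.3. Ccr7 had 0.6 in naive and 0.9, 1.0, 0.9 and 0.6, where the last library equalled naive. Tcf7, a partner of Lef1 in naive cells that is named after its values were seen, had 0.4 in naive and 0.9, 0.8, 0.6 and 0.5. For Lef1, Satb1 and Tcf7 naive lay below each of the other 4, by as little as 1 rounding step in Satb1 and Tcf7.

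T cell receptor genes were mixed. Lat had 1.0 in naive and 2.0, 1.4, 1.1 and 1.3, and Cd3e had 0.5 and 0.9, 0.8, 0.6 and 0.6. Cd8a had 0.7 in naive and 1.1, 1.2, 0.9 and 0.9, and Lck had 1.0 and 1.5, 1.2, 1.4 and 1.1, while Cd4 lay lower after differentiation, with a difference of -0.26. Proximal signalling members were higher in 5 and lower in 5, and brakes higher in 6 and lower in 2. Cytokine receptor and JAK-STAT members were higher in 8 and lower in 2, Tgfbr2 with a difference of 0.44. GTPase and actin members were higher in 11 and lower in 4, and chromatin members higher in 5 and lower in 6. Over all 1168 members 53.0% were higher, which is the share these counts stand beside.

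The largest 5mC differences among members with established names were those of H2-T10 (1.23), Srp14 (1.14), B2m (0.89), Mrpl30 (0.83) and Rpl23 (0.80). Srp14, a protein of the signal recognition particle, had a 5mC signal of 0.4 in naive and 1.3, 1.0, 1.2 and 1.0. B2m had 0.2 in naive and 0.4, 0.7, 0.6 and 0.5. Mrpl30, of the mitochondrial ribosome, had 0.3 in naive and 0.7, 0.5, 0.8 and 0.8. Rpl23, of the cytosolic ribosome, had 0.7 in naive and 1.4, 1.2, 1.3 and 1.6. In these 4 naive was the lowest library, but H2-T10 started from 0.0 and had an input signal of 0.7, so its difference rests on few steps. In the MHC cluster, Tap1 had 0.7 in naive and 1.5, 1.3, 0.6 and 1.2, and Psmb9 had 0.8 and 1.6, 1.7, 0.9 and 1.5, while Psmb8 had 0.5 and 0.5, 0.5, 0.3 and 0.4.

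The most negative 5mC differences were those of Trdv5 (-1.29), Kcnk15 (-0.74), Trac (-0.69), Arhgap4 (-0.68) and Mesdc1 (-0.67). Trac, the constant region of the T cell receptor alpha chain, had 0.4 in naive and 0.2, 0.2, 0.1 and 0.2. Kcnk15, a potassium channel gene, had 1.3 in naive and 0.7 in each of the other 4. Arhgap4, a GTPase regulator on chromosome X, had 1.1 in naive and 0.8, 0.7, 0.6 and 0.4. Mesdc1 had 2.5 in naive and 1.7, 1.6, 1.4 and 1.3. In these genes 5mC and 5hmC were both highest in naive cells. Trdv5 and Trac lie in the locus that T cells rearrange, and its part in their values was not tested. Eef2 had the highest 5mC signal of the named members, 8.4 in naive and 8.4, 7.0, 6.5 and 8.7, together with the highest input signal, 5.9.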

How the data were processed

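DNA immunoprecipitation sequencing of 12 libraries was deposited by the authors as 1 table of signal per gene area, with values of 0 or more given to 1 decimal. CASAVA 1.7.0 and mouse build mm9 are named in the submitters' processing notes. How reads were aligned, counted and scaled is not given in the sources used here, so depth is unknown and no counting interval could be computed. Whether coordinates count from 0 or 1 is not stated. Values were used as deposited. The table has 0 unused value columns. 5mC differences used log2(value + 0.2). Median-ratio scaling divided each library by its median ratio to the geometric mean of the libraries of its antibody. Members and gene lists were chosen with earlier results of these data known, and the lists come from textbook knowledge.

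Named genes were the 4 markers, the 10 members with the highest naive 5hmC and the 10 with the largest ratio, the top 3 of each list by naive 5hmC, the 5 largest and 5 smallest 5mC differences, 2 areas on either side of the 2-fold limit, the longest 3 and the densest loci, without predicted genes in rankings; some genes are not reported here. Others are said to be named after their values were seen or are listed as members of a group. Alternatives changed the fold, signal, length and IgG limits, the pseudocount, the scaling, and left out each library in turn. The selection step was tested on simulated data. Python 3.11.15, numpy 2.4.6, pandas 2.3.3, scipy 1.17.1 and matplotlib 3.10.9 were used.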

Additional observations from a re-analysis of the deposited data

Results flagged for a closer look

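As deposited, the members' 5mC difference from naive pointed in opposite directions by cell type. Its median over the 1168 members was 0.182 (log2) in Th1 and -0.0995 in Th17. The difference between these cell types was not tested, since each gave 1 5mC library, and both comparisons share the naive library. Over all areas of at least 3000 bp the medians were 0.00 and -0.17, so the members lay above the areas in general in both. After median-ratio scaling of the 5mC libraries the members' medians were 0.16 and 0.11, so the opposite signs were seen only in the values as deposited.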

How the results depend on the processing

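The number of members, 1168 as deposited, was 3505 with a 1.5-fold and 75 with a 3-fold limit, 692 with a least length of 10000 bp, 476 with IgG below 1 and 647 after median-ratio scaling of 5hmC. Leaving out 1 differentiated 5hmC library gave 1205 (without the one labelled Th17) to 1522 (without the one labelled iTreg). Naive limits of 10 and 40, no least length, no IgG limit and 1 area per locus gave 880 to 1638. The median 5mC difference, 0.02, was 0.15 after scaling of 5mC. It ranged from -0.016 to 0.056 when 1 5mC library was left out, and changed sign without Th1. It was 0.05 in areas with naive 5mC of 0.8 to 1.2, 0.04 at 10000 bp or more and 0.06 in the 647 scaled members, 3 alternatives chosen after seeing the data, as was the length limit for the next count. The 199 members with naive 5mC below each other library (5.75% of all areas) became 468 after scaling (19.4% of all areas). They were 82 when a gap of 0.2 was asked for (1.78%). At 10000 bp or more, where fewer areas remain, they were 113, against 5.14% of all areas of that length. With 1 library left out they were 208 to 308, the highest without Th17, against 6.39% to 9.68% of all areas. The 32 members at least 1.5-fold higher in 5mC (0.767% of all areas) were 1 with a pseudocount of 1 (0.0131%). They were 73 after scaling (1.62%) and 3 at 2-fold (0.0653%).

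No paired analysis was possible because each group held 1 library. Depth is unknown, and rounding to 0.1 limits the precision of the low 5mC values.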

Other observations

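Members also occurred in gene families that the lists cover in small part or not at all, counted by the start of the symbol after the values were seen, with 5.09% of all areas as the background. Proteasome beta subunits (Psmb) had 3 of 8, Psmb3, Psmb8 and Psmb9, and interferon regulatory factors (Irf) 3 of 10, Irf1, Irf7 and Irf9. Irf4 and Irf8, which stand on the list of effector fate transcription factors, were not members, with naive at 0.63 and 0.75 of the highest other library. Irf1, an activator of interferon-response and MHC class I genes (chromosome 11, 53583515 to 53591875), had a 5hmC signal of 141.2 in naive and 58.9, 38.3, 44.2 and 17.7 in Th1, Th2 and the libraries labelled iTreg and Th17. Its 5mC signal was 0.5 in naive and 0.9, 0.8, 1.1 and 0.9. Irf9, a factor of interferon signalling, had 105.8 in naive and 35.8, 39.0, 48.0 and 34.2 in 5hmC, and Irf7 had 54.6 and 19.0, 14.6, 20.4 and 16.3. In 5mC, Irf7 went the other way from Irf1, with 2.3 in naive and 2.0, 2.3, 1.6 and 0.8. Splicing factors (Srsf) had 3 of 11, Rassf proteins, which bind Ras-type GTPases, 3 of 9 including Rassf5 of the GTPase list, and Ppm phosphatases 4 of 12.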
